A study of Mus musculus with 24 samples.

Results

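The comparison set the transcripts of excitatory neurons against those of inhibitory neurons within the same single-nucleus RNA libraries of the mouse amygdala. In each of 4 libraries, counts were summed over all nuclei of the cell types that the submitters' names place among excitatory neurons (prefix Exc) and over all nuclei of the inhibitory types (prefix Inh), which gave 4 excitatory and 4 inhibitory sums paired by library. The sums held 5709 excitatory and 6993 inhibitory nuclei of 21648 RNA nuclei in all, and they used 4 of the 24 samples of the series. Excitatory neurons comprised 6 cell types (Exc-Abi3bp, Exc-Ebf2, Exc-Strip2, Exc-Tafa1, Exc-Tfap2c, Exc-Vwa5b1) and inhibitory neurons 8 (Inh-Drd2, Inh-Htr3a, Inh-Lamp5, Inh-Lypd6b, Inh-Nxph2, Inh-Sst, Inh-Tshz1, Inh-Zfhx3). A further neuronal type, Neuronal-Aldoa-Cst3, carried neither prefix and entered neither class.

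The study profiled adult male mice of inbred strains, killed at 10 to 16 weeks of age, without treatment or transgene. The strains labelled BL6 and DBA had RNA libraries, 2 each, and each library came from the pooled amygdalae of about 2 animals. Nuclei for RNA were sorted toward 75% neurons with an antibody to the neuronal protein NeuN, and nuclei for ATAC, which reads open chromatin, were sorted with a DNA dye alone. Libraries are named by strain and by the number in the count table (BL6 2, BL6 3, DBA 2 and DBA 3), and the difference between strains was not the question. How the submitters made and named the cell types is not given in the sources used here. If the names rest on RNA of the same nuclei, a higher level of the genes behind them is partly built in, and the p-values below then measure only how evenly 4 libraries show a difference.

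Excitatory neurons of the amygdala release glutamate, which they load into synaptic vesicles with the vesicular transporters VGLUT1 and VGLUT2, the products of Slc17a7 and Slc17a6. Inhibitory neurons make GABA from glutamate with the decarboxylases encoded by Gad1 and Gad2 and load it with the vesicular transporter encoded by Slc32a1. The basolateral amygdala resembles cortex, with glutamatergic projection neurons and local interneurons. The central and medial amygdala and the intercalated islands resemble the striatum or hypothalamus and hold mostly GABAergic projection neurons.

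The excitatory sums held 10328730 to 25937979 counts per library and the inhibitory sums 10208384 to 28299169. Excitatory neurons made up 25.0 ± 5.90% of the nuclei of a library and inhibitory neurons 31.6 ± 5.88% (SD, n = 4), and the excitatory share was the lower in 4 of 4 libraries. An excitatory nucleus carried 13064.6 ± 3358.4 counts and an inhibitory nucleus 11235.9 ± 2675.4, a mean ratio of 1.16, higher in 4 of 4 libraries. An exact paired permutation test (two-sided) gave p = 0.13 for each of these differences, the smallest p that 4 pairs allow. Levels are given as counts per 1000000 counts of a sum (CPM), so that in these sums fewer nuclei of a type and less RNA per nucleus cannot be told apart. Cell types had unequal weight. Exc-Vwa5b1, Exc-Tafa1 and Exc-Abi3bp held 36.4%, 29.5% and 24.2% of excitatory nuclei, and Inh-Tshz1, Inh-Nxph2, Inh-Zfhx3 and Inh-Sst held 26.3%, 24.5%, 20.9% and 12.9% of inhibitory nuclei. Exc-Strip2 was spread unevenly over libraries, with 75, 3, 1 and 77 nuclei in BL6 2, BL6 3, DBA 2 and DBA 3.

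The promoters of the transmitter genes are shown because the classes differed at them both in RNA and in open chromatin. Each sequence is a RefSeq window on GRCm38.p6 (mm10), plus strand, from 250 bases before to 50 bases after an annotated transcription start, and capitals mark matches to the E-box CAGATG, read on either strand (CATCTG on the opposite strand), or to the homeobox motif TAATTA. The windows are chr7:45163671-45163970 for Slc17a7, chr7:51624387-51624686 for a start of Slc17a6, chr2:70561879-70562178 for Gad1 and chr2:22622077-22622376 for Gad2.
Slc17a7: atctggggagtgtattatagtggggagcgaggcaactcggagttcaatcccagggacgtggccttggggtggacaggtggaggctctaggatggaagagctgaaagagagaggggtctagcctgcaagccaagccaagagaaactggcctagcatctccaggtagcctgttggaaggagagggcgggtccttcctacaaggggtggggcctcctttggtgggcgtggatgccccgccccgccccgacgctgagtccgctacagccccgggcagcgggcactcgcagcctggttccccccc
Slc17a6: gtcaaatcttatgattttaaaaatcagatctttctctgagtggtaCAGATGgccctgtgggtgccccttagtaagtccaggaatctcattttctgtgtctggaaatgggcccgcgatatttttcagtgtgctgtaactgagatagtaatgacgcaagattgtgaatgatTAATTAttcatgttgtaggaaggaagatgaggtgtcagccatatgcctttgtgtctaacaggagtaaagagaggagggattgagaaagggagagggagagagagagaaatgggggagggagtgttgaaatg
Gad1: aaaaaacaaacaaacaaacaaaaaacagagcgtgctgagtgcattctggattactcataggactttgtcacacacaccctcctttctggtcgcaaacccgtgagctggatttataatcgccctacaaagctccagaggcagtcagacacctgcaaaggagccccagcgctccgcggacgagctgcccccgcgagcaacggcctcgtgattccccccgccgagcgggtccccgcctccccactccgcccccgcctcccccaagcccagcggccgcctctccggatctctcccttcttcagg
Gad2: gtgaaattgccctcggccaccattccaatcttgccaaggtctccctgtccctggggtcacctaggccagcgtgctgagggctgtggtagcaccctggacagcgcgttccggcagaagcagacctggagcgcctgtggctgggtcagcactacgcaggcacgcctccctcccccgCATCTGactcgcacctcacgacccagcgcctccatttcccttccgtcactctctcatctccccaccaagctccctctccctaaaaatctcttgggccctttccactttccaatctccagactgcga
The Gad1 window held 21 CpG dinucleotides and 60.0% G and C, against 3 CpG dinucleotides and 43.0% for this Slc17a6 start. The other annotated Slc17a6 start, at chr7:51621580-51621879, held 8 CpG dinucleotides and 53.7%, and the Slc17a7 window 13 and 63.7%. The Slc17a6 window printed here held the E-box at base 46 and the homeobox motif at base 170, and the Gad2 window held the E-box at base 175. Neither motif, nor the cyclic AMP response element TGACGTCA, was found in the Slc17a7, Gad1 and Slc32a1 windows or at the other Slc17a6 start. Their absence says only that these letters are not there.

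The 5 transmitter genes separated the classes in every library. The SE given with a log2 fold change is its absolute value divided by the square root of edgeR's F statistic. This SE is not the spread of the 4 library ratios. Slc17a7 measured 119.9, 178.7, 177.7 and 165.8 CPM in the excitatory sums of BL6 2, BL6 3, DBA 2 and DBA 3 and 7.63, 5.68, 4.2 and 6.91 CPM in the inhibitory sums (log2 fold change 4.63 ± 0.24 SE, adjusted p = 0.000602 by edgeR's quasi-likelihood test with Benjamini-Hochberg adjustment over 18227 genes). Slc17a6 measured 72.3, 55.2, 68.9 and 81.7 CPM against 8.37, 6.07, 7.49 and 5.21 CPM (3.41 ± 0.14, adjusted p = 1.43e-05 by edgeR). Both transporters were higher in excitatory sums with no overlap between classes, and BL6 2 had the lowest Slc17a7 of the excitatory sums. Gad1 measured 5.82, 2.14, 1.06 and 2.84 CPM in excitatory sums and 164.3, 186.1, 165.4 and 158.7 CPM in inhibitory sums (-5.56 ± 0.33, adjusted p = 0.00122). Gad2 measured 9.95, 5.30, 3.0 and 5.17 CPM against 239.3, 219.8, 226.0 and 231.4 CPM (-5.16 ± 0.26, adjusted p = 0.000523). Slc32a1 measured 6.82, 2.05, 1.84 and 3.21 CPM against 72.2, 68.9, 55.0 and 51.8 CPM (-3.94 ± 0.27, adjusted p = 0.00091). The low residual levels of the 3 GABA genes in excitatory sums moved together across libraries, highest in BL6 2 and lowest in DBA 2, and whether free RNA or mixed nuclei contributed to them was not tested.

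**Figure D1:**
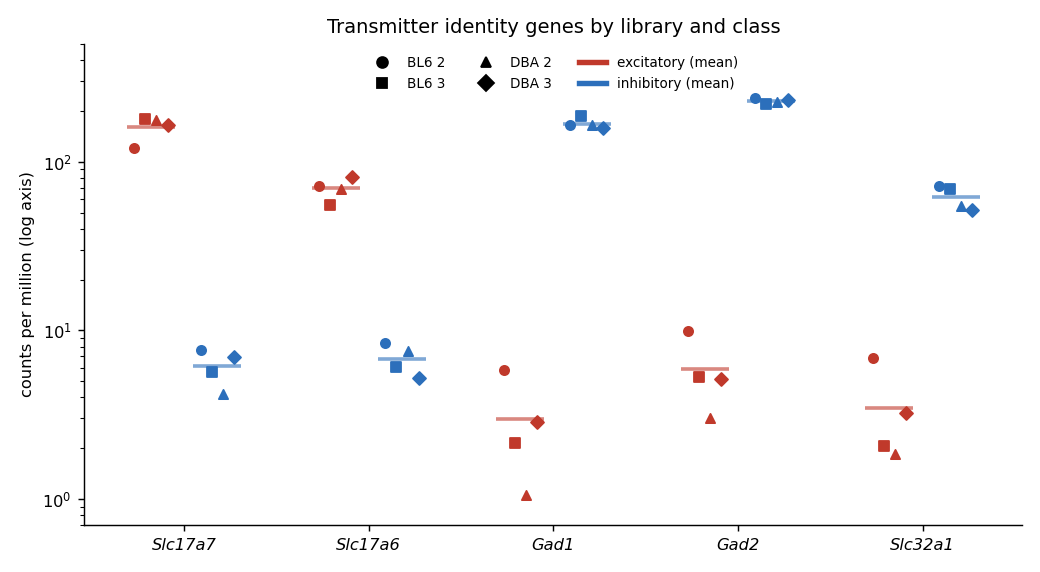
CPM (log axis) of the 5 transmitter genes in the excitatory (red) and inhibitory (blue) sums. Each point is a library, marked by shape, and bars are means over 4 libraries; no gene's classes overlap, and the excitatory points of Gad1 run from 1.06 to 5.82 CPM.

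The 2 vesicular glutamate transporters differed in their order over the excitatory types. Over the 4 libraries summed, Slc17a7 was 308.9 CPM in Exc-Tafa1, 284.1 in Exc-Strip2 and 224.1 in Exc-Ebf2, but 64.6 in Exc-Vwa5b1, 22.5 in Exc-Abi3bp and 3.03 in Exc-Tfap2c, where 3 of 4 libraries had no count of it. Slc17a6 ran the other way at the ends of this order, with 135.2 CPM in Exc-Abi3bp and 133.1 in Exc-Tfap2c and 12.1 CPM in Exc-Tafa1. The other types held both, with Slc17a6 at 89.9 CPM in Exc-Vwa5b1, 64.3 in Exc-Ebf2 and 46.2 in Exc-Strip2. Slc17a7 was above the 5.01 to 11.2 CPM of the inhibitory types in 5 of the 6 excitatory types and below them in Exc-Tfap2c, a type of 79 nuclei. Among inhibitory types, Inh-Lypd6b stood out for Slc17a6. It held 63.8, 88.2, 57.6 and 47.2 CPM in BL6 2, BL6 3, DBA 2 and DBA 3, from 86, 21, 81 and 31 counts, while the other 7 inhibitory types held 0.94 to 6.84 CPM over all libraries. The same type held Gad1 at 95.4, Gad2 at 136.2, Slc32a1 at 42.7 and Slc17a7 at 11.2 CPM, far above the excitatory types for the GABA genes. By contrast the GABA genes were low in all 6 excitatory types, with Gad1 at 2.54 to 4.52 and Gad2 at 2.54 to 7.47 CPM.

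**Figure D2:**
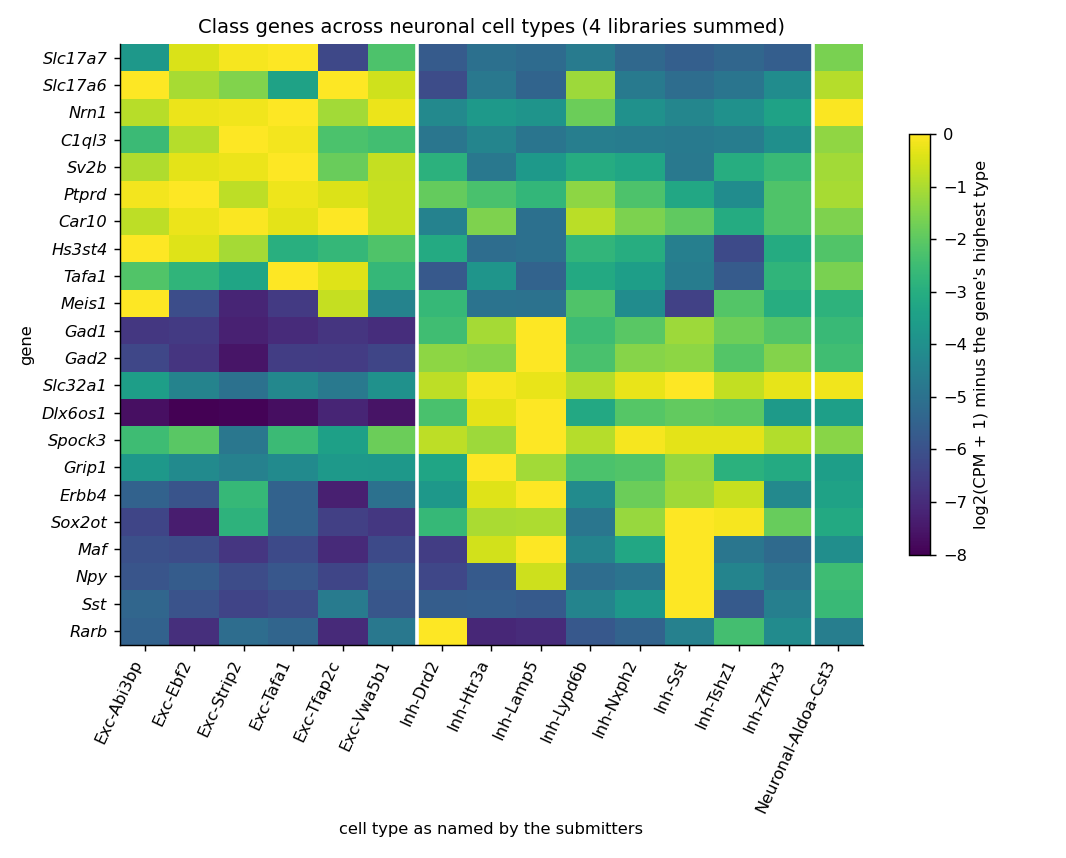
Colour gives log2(CPM + 1) of a gene in a cell type minus that gene's highest type, with excitatory types left of the first white line, inhibitory types between the lines and Neuronal-Aldoa-Cst3 at the right. Slc17a7 and Slc17a6 peak in different excitatory types, Slc17a6 is also present in Inh-Lypd6b, and Gad1 and Gad2 are low in all excitatory types.

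Of 34039 genes in the table, 22155 had 10 or more counts in each strain and 18227 passed the filter on low counts. Among these, 3449 genes (18.9% of those tested) were called higher in excitatory sums and 3240 (17.8%) higher in inhibitory sums at an adjusted p under 0.05 (edgeR), and the median log2 fold change over all genes tested was -0.01. Differences of 2-fold or more among called genes numbered 819 toward excitatory (4.49%) and 607 toward inhibitory sums (3.33%). These fits paired the classes by library. Without the replicate block for the library, the calls numbered 1915 and 1481, and 819 genes toward excitatory and 589 toward inhibitory sums passed a test against a 1.5-fold difference. When cell types were weighted equally in place of nuclei, 1977 genes were called higher in excitatory types and 2331 in inhibitory types.

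Beside the vesicular transporters, 8 further genes were named for the size of their difference toward excitatory sums. Nrn1, which encodes neuritin, a membrane-anchored protein that promotes neurite growth, measured 69.8, 83.7, 67.9 and 76.7 CPM against 8.45, 4.21, 4.76 and 5.48 CPM in BL6 2, BL6 3, DBA 2 and DBA 3 (log2 fold change 3.64 ± 0.20). C1ql3, a secreted synaptic organiser of the C1q family, measured 143.7, 188.8, 182.9 and 192.5 CPM against 19.8, 14.3, 8.04 and 14.6 CPM (3.62 ± 0.31). Ptprd, a receptor tyrosine phosphatase that organises presynaptic terminals, measured 8024.8, 7561.9, 7452.2 and 6739.4 CPM against 1783.3, 1386.2, 1675.4 and 1503.0 CPM (2.28 ± 0.05). For these 3 genes every excitatory sum exceeded every inhibitory sum. The vesicle protein gene Sv2b (2.81), Tmem163, a zinc transporter of vesicles (2.53), the heparan sulfate sulfotransferase gene Hs3st4 (2.44) and the synaptotagmin gene Syt17 (2.27) completed the side together with Tafa1 (2.82). Of these, all but Sv2b had cell types that overlapped between classes. Tmem163 was at 4.57 CPM in Exc-Strip2 and 115.1 in Inh-Lypd6b, and Hs3st4 at 249.9 in Exc-Tafa1 and 291.0 in Inh-Lypd6b. Syt17 was at 2.02 CPM in Exc-Tfap2c and 38.5 in Inh-Htr3a, and Tafa1 at 223.2 in Exc-Strip2 and 322.6 in Inh-Zfhx3. Tafa1, a secreted neurokine-like gene that also names a cell type, lost its call without BL6 2 (adjusted p = 0.058 by edgeR) and without DBA 2 (0.0503).

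Toward inhibitory sums, the largest difference among genes with a mean log2 CPM of at least 5 belonged to a long noncoding RNA. Dlx6os1, a noncoding RNA transcribed beside the GABAergic homeobox genes Dlx5 and Dlx6, measured 3.32, 1.49, 1.84 and 2.61 CPM in excitatory sums and 173.8, 193.8, 193.7 and 173.6 CPM in inhibitory sums (log2 fold change -6.10 ± 0.15). Sox1ot (-5.60 ± 0.12) and Sox2ot (-5.13 ± 0.34), noncoding RNAs that overlap neural SOX genes, followed. Reads of such overlapping or antisense genes cannot be assigned to a strand from the sources used here. Erbb4, the neuregulin receptor, measured 340.7, 221.6, 237.0 and 316.7 CPM against 3556.3, 4328.5, 4026.7 and 3542.0 CPM (-3.76 ± 0.22). The transcription factor gene Maf (-4.54), the peptide gene Npy (-3.61) and Chn2, a GTPase-activating protein for Rac (-3.53), were also named for the size of their difference. The library sums of the classes did not overlap in any of them, but cell types did for Npy, Maf and Chn2. Npy was at 323.5 CPM in Inh-Sst and 210.6 in Inh-Lamp5. In the other inhibitory types it was at 3.13 to 14.6 CPM, against 3.03 to 5.36 in excitatory types. Maf was at 180.1 to 265.8 CPM in Inh-Htr3a, Inh-Lamp5 and Inh-Sst but 1.88 in Inh-Drd2, within the 1.01 to 3.04 of excitatory types. Chn2 was at 4.15 CPM in Inh-Htr3a, below the 4.52 to 17.8 of excitatory types. Within excitatory types, Erbb4 reached 1689.1 and Sox2ot 381.0 CPM in Exc-Strip2 against 65.5 to 324.6 and 15.5 to 59.0 CPM in the other 5, while Gad1 was 2.54 CPM there.

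Few of the called genes separated all cell types of a class from all types of the other. Of the genes tested, 42 had a lowest excitatory type above the highest inhibitory type, and 77 showed the reverse. Of these, 41 and 73 were also called, which were 1.19% of the genes called toward excitatory and 2.25% of those called toward inhibitory sums. These counts used types with 50 or more nuclei. With types of 200 or more nuclei (4 excitatory and 8 inhibitory), these numbers were 185 and 215. Among genes with a mean log2 CPM of 5 or more, the widest gaps in CPM on the excitatory side, provisional gene symbols aside, belonged to Nrn1, C1ql3, Sv2b, Ptprd and Car10. The lowest excitatory type of C1ql3 held 62.1 CPM and the highest inhibitory type 21.5 CPM, and for Ptprd these were 5390.9 and 3694.9 CPM. Car10, a carbonic-anhydrase-related protein without catalytic activity that binds neurexins, was separated by little, with 965.9 against 946.8 CPM. On the inhibitory side, the widest gaps in CPM were those of Gad1 (95.4 CPM in the lowest inhibitory type, 4.52 in the highest excitatory type), Gad2 (136.2 and 7.47), Dlx6os1 (57.1 and 4.03), the extracellular proteoglycan gene Spock3 (411.9 and 263.9) and Grip1, a scaffold for AMPA receptors (583.8 and 446.7). Slc32a1 had a narrower gap in CPM but a wider one as a ratio than the last 2 (42.7 and 6.19).

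Other called genes of 2-fold or more were much higher in 1 type than in the rest of their class, but that type did not always supply most of the counts of the sum, since types differ in size. Exc-Abi3bp supplied 90.1% of the excitatory counts of Meis1 and 74.0% of those of Abi3bp, and Exc-Tafa1 supplied 83.2% of those of Pdzrn3, a ubiquitin ligase gene. The metalloprotease gene Pappa2 reached 835.9 CPM in Exc-Tfap2c against 14.2 to 78.0 CPM in the other excitatory types, yet that small type supplied 829 of its 3068 excitatory counts and Exc-Abi3bp 1285. The transcription factor gene Nfia was highest in Exc-Ebf2 (550.3 CPM), which supplied 28.3% of its counts, below Exc-Tafa1 (34.9%) and Exc-Vwa5b1 (31.0%). Without the type with the most counts in each class (Exc-Tafa1 and Inh-Nxph2), the log2 fold change of Pdzrn3 turned from 1.89 to -0.25 (adjusted p = 0.199 by edgeR). On the inhibitory side, Inh-Tshz1 supplied 93.6% of the counts of Chst9, a sulfotransferase gene, and Inh-Sst 79.1% of those of the peptide gene Sst. The vesicle protein gene Synpr had 40.1% of its inhibitory counts in Inh-Htr3a. The retinoic acid receptor gene Rarb (1203.4 CPM) and the signalling gene Rgs9 (516.4 CPM) were highest in Inh-Drd2, which supplied 38.6% and 30.8% of their counts, slightly below the 39.0% and 32.6% from Inh-Tshz1. Several of these calls were lost when certain single libraries were left out, with unchanged direction. Pappa2 lost its call without BL6 2 (0.0944) or DBA 3 (0.0546), Abi3bp without BL6 2 (0.112), DBA 2 (0.0881) or DBA 3 (0.066), and Synpr without BL6 3 (0.155) or DBA 3 (0.124), as adjusted p by edgeR. Chst9 and Rgs9 lost theirs without DBA 2 (0.0582 and 0.0616).

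**Figure D3:**
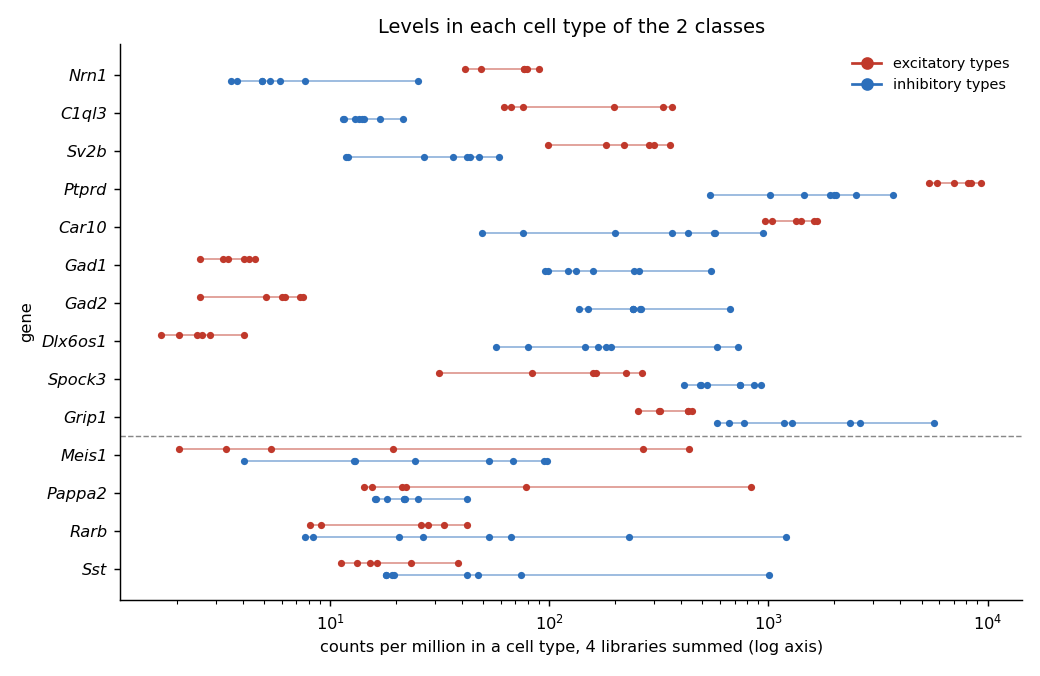
Each point is the CPM (log axis) of a cell type over 4 libraries summed, red for the 6 excitatory and blue for the 8 inhibitory types, and lines span the range. Above the dashed line the ranges of the classes do not overlap, narrowly for Car10, while below it the ranges of Meis1, Pappa2, Rarb and Sst overlap and 1 or a few types lie far above the rest.

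Gene lists by role are given as counts of called members, to be read against 18.9% of all genes called toward excitatory and 17.8% toward inhibitory sums. Calls were more frequent among well-expressed genes. Of 5538 genes with a mean log2 CPM of 5 or more, 1412 were called toward excitatory and 1413 toward inhibitory sums. Lists rich in such genes are to be read against those larger shares. Of 12 genes of glutamate synthesis, transport and release, 4 were higher in excitatory sums, 4 higher in inhibitory sums and 4 not called (median log2 fold change -0.02). Besides the vesicular transporters, the excitatory members included Slc1a2, a glutamate uptake carrier (log2 fold change 1.08). By cell type Slc1a2 was higher in Exc-Ebf2 (286.2 CPM) than in any inhibitory type. However, Inh-Lamp5 (177.6) and Inh-Htr3a (120.8) lay above Exc-Abi3bp (83.7) and Exc-Vwa5b1 (79.4). Inhibitory sums held more of the glutamine carriers Slc38a1 (-0.37) and Slc38a2 (-0.26). The list's 1 member at 2-fold or more toward inhibitory sums was Glul (-1.13), picked out after its value was seen. Glul also separated all types, at 5.48 to 21.9 CPM in inhibitory and 4.06 to 5.38 CPM in excitatory types. Slc1a1, the neuronal glutamate uptake carrier, was 90.0 ± 4.95 against 87.5 ± 3.84 CPM (SD, n = 4; adjusted p = 0.265 by edgeR), with overlapping classes. Of 9 genes tested from the list of GABA genes, 8 were higher in inhibitory sums and none in excitatory sums (median -1.13), and 5 separated all types. The 8 included Abat, which degrades GABA (98.4 to 110.1 against 43.1 to 48.7 CPM, -1.13) and Aldh5a1, the next enzyme in that pathway (-0.61). The member not called was Dner (-0.10, adjusted p = 0.0587 by edgeR), which is on the list but is not a gene of GABA synthesis, transport or breakdown.

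Transcription factors showed the largest list medians of either sign. Of 28 factors tested from a list for excitatory lineages, 18 were higher in excitatory and 4 in inhibitory sums (median 1.88, or 0.96 with types weighted equally and 1.14 without Exc-Tafa1 and Inh-Nxph2), and 17 of the 18 differed by 2-fold or more. Lhx2, a LIM-homeodomain factor, measured 15.5, 17.1, 15.0 and 17.2 CPM against 1.41, 1.18, 1.26 and 1.20 CPM (3.69 ± 0.12), and its relative Lhx9 had a log2 fold change of 4.11 ± 0.16. Bcl11a, a zinc finger factor on the same list, went the other way at 105.5 ± 11.2 against 205.3 ± 13.3 CPM (-0.92). With cell types weighted equally Bcl11a was not called (-0.22, adjusted p = 0.313 by limma). Of 33 factors listed for inhibitory lineages, 24 were higher in inhibitory and 3 in excitatory sums (median -2.61, or -1.60 with types weighted equally). Six3, a homeodomain factor of striatal lineages, measured 0.964, 0.651, 0.290 and 0.559 CPM against 14.9, 13.1, 13.5 and 16.3 CPM (-4.40 ± 0.18). Within inhibitory types Six3 was at 40.1 CPM in Inh-Tshz1, 19.4 in Inh-Drd2 and 18.5 in Inh-Zfhx3 and at 2.22 CPM or less in the other 5. Meis1 (1.27 ± 0.08) and the nuclear receptor gene Nr2f2 (1.01 ± 0.05) were on the inhibitory list but higher in excitatory sums.

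**Figure D4:**
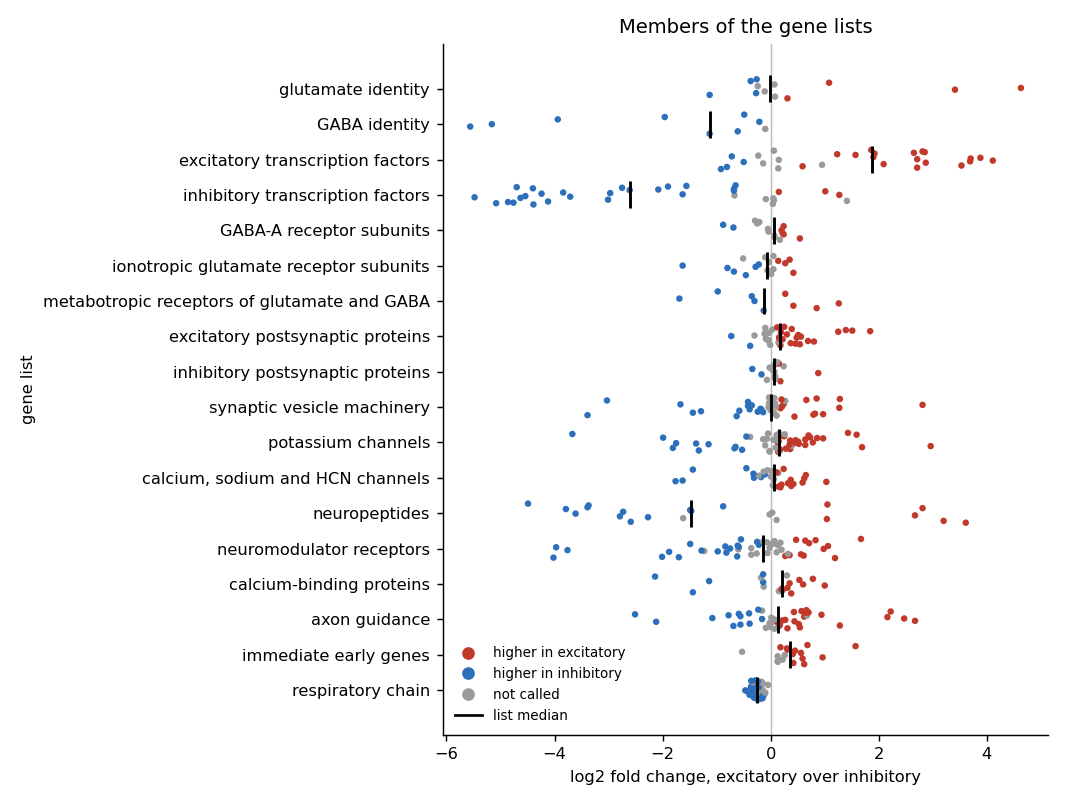
Log2 fold change of each list member, excitatory over inhibitory, coloured by its call, with the list median as a black bar. The medians of the 2 lists of transcription factors (1.88 and -2.61) and of neuropeptides (-1.48) lie far from 0, and those of receptor subunits lie within 0.13 of it.

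Ionotropic receptor subunits for the 2 transmitters were called in both directions. Of 15 GABA-A receptor subunits tested, 5 were higher in excitatory and 2 in inhibitory sums (median 0.07), none by 2-fold. Gabrg3, a gamma subunit, measured 726.9, 575.1, 640.5 and 640.3 CPM against 1181.6, 1142.9, 1317.7 and 1244.9 CPM (-0.88 ± 0.05). Gabra2, an alpha subunit, was 512.4 ± 100.7 against 361.7 ± 55.2 CPM (0.54 ± 0.05); the classes overlapped across libraries but excitatory sums were higher within each of the 4. The median of this list turned to -0.08 when types were weighted equally, so that its direction depended on the weight of types. Among 17 ionotropic glutamate receptor subunits, 4 were higher in excitatory and 6 in inhibitory sums (median -0.06), and 1 of them, Grik3, by over 2-fold (52.4 ± 11.1 against 164.1 ± 22.2 CPM, -1.63, chosen after its value was seen). The AMPA receptor subunit gene Gria4 measured 602.7 to 728.5 CPM against 1044.4 to 1237.9 CPM (-0.68 ± 0.04), and the kainate receptor gene Grik1 263.2 to 401.7 against 528.2 to 665.7 CPM (-0.80 ± 0.05). Grin2b, an NMDA receptor subunit, was higher in excitatory sums (1713.2 ± 165.1 against 1382.0 ± 83.8 CPM, 0.35 ± 0.04), and Gria2 did not differ beyond its error (0.01, adjusted p = 0.928 by edgeR). Without Exc-Tafa1 and Inh-Nxph2, Grin2b was at 0.02 (adjusted p = 0.84) and Grik1 at -0.10 (0.155).

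Metabotropic receptors and postsynaptic proteins followed. All 9 metabotropic receptors of glutamate and GABA were called, 4 toward excitatory and 5 toward inhibitory sums, over a range of log2 fold changes from -1.69 to 1.26. Gabbr2, a GABA-B receptor subunit, measured 296.0, 343.3, 374.6 and 359.2 CPM against 182.5, 200.1, 197.8 and 199.2 CPM (0.85 ± 0.04), while its partner Gabbr1 was 127.8 ± 7.81 against 143.7 ± 8.35 CPM (-0.13 ± 0.04, adjusted p = 0.0157 by edgeR). The call of Gabbr1 was lost without BL6 2 (0.0672) and without DBA 3 (0.0506). By cell type, Gabbr2 was highest in Inh-Lamp5 (757.2 CPM) and lowest in Inh-Drd2 (61.4 CPM), against 196.6 to 447.2 CPM in the excitatory types. Of 36 excitatory postsynaptic proteins, 23 were higher in excitatory and 2 in inhibitory sums (median 0.18). The neuronal pentraxin receptor gene Nptxr (55.8 ± 22.2 against 19.9 ± 6.89 CPM, 1.51 ± 0.05) and the AMPA receptor auxiliary gene Cnih3 (0.80 ± 0.05) had the smallest p of these. The 2 toward inhibitory sums were Homer2 (-0.73) and the AMPA receptor auxiliary gene Cacng2 (-0.38). Without the block, 14 of the 36 were higher in excitatory sums, and without Exc-Tafa1 and Inh-Nxph2, 14 were higher, with Nptxr at 0.13 (adjusted p = 0.354) and Cnih3 at 0.08 (0.382). Among 15 inhibitory postsynaptic proteins, 3 were higher in excitatory and 2 in inhibitory sums. The adhesion molecule gene Igsf9b measured 91.5 to 124.4 against 54.5 to 65.5 CPM (0.88 ± 0.05), and gephyrin (Gphn), the scaffold under GABA-A and glycine receptors, 698.8 ± 33.6 against 807.1 ± 36.1 CPM (-0.17 ± 0.04).

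Release machinery was split between the classes. Of 40 vesicle and active zone genes, 13 were higher in excitatory and 15 in inhibitory sums (median 0.01). Sv2b measured 243.7, 246.9, 275.2 and 280.8 CPM against 42.1, 40.7, 32.7 and 37.6 CPM (2.81 ± 0.10). The syntaxin gene Stx1a (52.6 ± 5.47 against 22.4 ± 3.02 CPM, 1.27) and the priming factor gene Unc13b (180.2 ± 20.6 against 76.0 ± 1.79 CPM, 1.28) were higher in excitatory sums. Nrxn3, a presynaptic adhesion molecule, measured 2656.2, 2782.3, 2462.8 and 2165.2 CPM against 7316.6, 7050.9, 6910.7 and 6823.5 CPM (-1.44 ± 0.05), and the calcium sensor gene Syt1 2043.1 ± 126.4 against 2808.7 ± 83.4 CPM (-0.42 ± 0.04). Inh-Htr3a had the highest Nrxn3 (14620.5 CPM), and Inh-Lamp5, at 2538.5 CPM, lay within the 1914.5 to 3305.7 CPM of the excitatory types.

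Ion channels likewise gave calls both ways. Of 53 potassium channel genes, 26 were higher in excitatory and 11 in inhibitory sums (median 0.16), with 4 and 7 at 2-fold or more. Kcnc2, a Kv3 channel of fast-spiking neurons, measured 142.6, 140.3, 120.9 and 119.4 CPM against 475.8, 576.9, 489.5 and 366.5 CPM (-1.81 ± 0.07), and its relative Kcnc1 59.6 ± 3.15 against 98.2 ± 4.66 CPM (-0.67 ± 0.04). Kcnc2 was highest in Inh-Sst (1265.7 CPM) and Inh-Htr3a (972.3 CPM), and Inh-Drd2, at 90.9 CPM, lay below 5 of the 6 excitatory types. The large-conductance calcium-activated channel gene Kcnma1 was higher in excitatory sums (1119.0 ± 106.4 against 630.8 ± 9.56 CPM, 0.86 ± 0.05). Without Exc-Tafa1 and Inh-Nxph2 the list counted 17 toward excitatory and 15 toward inhibitory sums. Of 29 calcium, sodium and HCN channel genes, 13 were higher in excitatory and 8 in inhibitory sums. The calcium channel subunits alpha2delta took opposite sides. Cacna2d1 measured 635.2 to 788.9 against 312.3 to 416.7 CPM (1.03 ± 0.04), whereas Cacna2d2 measured 28.3 to 36.6 against 95.5 to 131.0 CPM (-1.76 ± 0.04) and Cacna2d3 234.7 to 282.6 against 726.4 to 914.6 CPM (-1.63 ± 0.04). For these 3 genes the library sums of the classes did not overlap, but their cell types did. Cacna2d1 was highest in Inh-Lamp5 (1930.0 CPM), above Exc-Tfap2c (834.9 CPM), its highest excitatory type. Cacna2d2 was at 217.8 CPM in Exc-Tfap2c and 7.92 in Inh-Lamp5, and Cacna2d3 at 707.8 CPM in Exc-Strip2 and 120.0 in Inh-Lamp5.

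Neuropeptide genes differed by larger factors. Of 22 tested, 12 were higher in inhibitory and 6 in excitatory sums (median -1.48), 11 and 6 of them by 2-fold or more. Pnoc, the precursor of nociceptin, measured 1.23, 0.465, 0.484 and 0.699 CPM against 11.1, 12.2, 14.5 and 10.5 CPM (-3.79 ± 0.21), and Sst, somatostatin, 21.5, 14.1, 13.8 and 14.7 CPM against 140.4, 211.2, 244.4 and 155.6 CPM (-3.39 ± 0.29). Bdnf, a neurotrophin listed with the peptides, measured 34.3, 35.3, 30.5 and 32.7 CPM against 4.52, 4.11, 2.73 and 3.32 CPM (3.20 ± 0.09). Grp, gastrin-releasing peptide, was also higher in excitatory sums (4.23 ± 1.35 against 0.661 ± 0.148 CPM, 2.67 ± 0.20). Cck, cholecystokinin, was 65.5 ± 7.35 against 33.7 ± 6.91 CPM (1.04 ± 0.17, adjusted p = 0.012 by edgeR), although its highest cell type was Inh-Htr3a at 274.8 CPM, above Exc-Abi3bp at 135.8 CPM. The call of Cck was lost without BL6 2 (0.0733), and with types weighted equally its log2 fold change was 0.25 (adjusted p = 0.527 by limma). Oxt, oxytocin, held 11.8 and 8.15 CPM in the inhibitory sums of BL6 2 and DBA 3 and 0.686 and 0.0700 CPM in those of BL6 3 and DBA 2, with most of it in Inh-Zfhx3 (29.9 CPM). Its call (-2.73) rested on the pairing and was lost without the block (adjusted p = 0.272 by edgeR).

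Receptors for modulators and other groups followed. Of 47 neuromodulator receptors tested, 12 were higher in excitatory and 18 in inhibitory sums (median -0.14). Vipr1, a receptor for vasoactive intestinal peptide, was 18.8 ± 2.98 against 5.98 ± 1.16 CPM (1.67 ± 0.12) and the neuropeptide Y receptor gene Npy1r 13.9 ± 0.913 against 6.95 ± 0.651 CPM (1.06 ± 0.09). Toward inhibitory sums lay the adrenergic receptor gene Adra1b (3.83 ± 0.497 against 16.5 ± 2.66 CPM, -2.01 ± 0.11) and the cannabinoid receptor gene Cnr1 (34.7 ± 2.95 against 63.2 ± 3.87 CPM, -0.82 ± 0.06), the latter at 648.3 CPM in Inh-Htr3a and 186.7 CPM in Exc-Strip2. Vipr1 was not called without Exc-Tafa1 and Inh-Nxph2 (0.36, adjusted p = 0.1 by edgeR), nor Npy1r with types weighted equally (0.31, adjusted p = 0.181 by limma). Of 18 calcium-binding proteins, 9 were higher in excitatory and 5 in inhibitory sums. Necab1 (118.6 ± 5.05 against 271.4 ± 28.7 CPM, -1.14) and the interneuron marker Pvalb (0.390 ± 0.205 against 1.92 ± 0.896 CPM, -2.14) were toward inhibitory sums, and Necab3 (0.78) and Necab2 (0.53) toward excitatory sums. Necab2 stood at -0.02 with types weighted equally. Of 42 axon guidance genes, 20 were higher in excitatory and 12 in inhibitory sums. The ligand gene Slit3 measured 690.4, 862.8, 797.9 and 668.5 CPM against 174.2, 180.1, 167.5 and 143.2 CPM (2.22 ± 0.05), and the gene of its receptor family, Robo1, 875.7 ± 40.5 against 1912.3 ± 208.2 CPM (-1.08 ± 0.04). Slit3 was also high in Inh-Drd2 (776.9 CPM), within the 20.2 to 1144.3 CPM of the excitatory types. Plxnd1, a semaphorin receptor, was 2.47 ± 0.11 and Sema5b, a semaphorin, -2.51 ± 0.09 on the log2 scale.

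The calls of a pair of lists all went in a single direction. Of 18 immediate early genes, 12 were higher in excitatory and none in inhibitory sums (median 0.36). Nr4a2, a nuclear receptor gene, measured 13.3, 13.7, 11.0 and 8.76 CPM against 4.35, 6.96, 2.87 and 2.76 CPM (1.57 ± 0.14) and was the list's member at 2-fold or more. Without the block 4 of the 18 were called, and without Exc-Tafa1 and Inh-Nxph2, 5, and with types weighted equally 7 were called toward excitatory and 1 toward inhibitory types. Of 43 genes of the respiratory chain, 34 were higher in inhibitory and none in excitatory sums (median -0.25, range -0.47 to -0.05). Ndufs1, a subunit of complex I, measured 54.1, 63.6, 49.8 and 53.2 CPM against 72.6, 73.9, 71.1 and 71.6 CPM (-0.36 ± 0.05), and Ndufa4 28.0 ± 3.04 against 38.8 ± 3.26 CPM (-0.42 ± 0.05). The median kept its sign under every scaling, at -0.29 with total counts alone. However, the called members numbered 8 without the block, 11 with types weighted equally, 20 with DESeq2 and none in the test against a 1.5-fold difference. Beside these lists, counts per nucleus were higher in the excitatory class in every library, and their part in the result was not tested.

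Markers of other cells were present in both classes, and 6 members of the astrocyte, oligodendrocyte and microglia lists differed between them. Summed over 8 astrocyte markers, libraries held 84.5 to 161.6 CPM in excitatory and 136.5 to 221.2 CPM in inhibitory sums. Slc4a4, a bicarbonate cotransporter gene, averaged 70.8 and 121.0 CPM of these, and was at 443.1 CPM in Inh-Drd2 and 256.7 CPM in Inh-Tshz1. Of the 8 members, Slc4a4 (-0.72) and Aqp4 (3.02 ± 0.879 against 7.08 ± 1.45 CPM, -1.10) were higher in inhibitory sums and 1 was higher in excitatory sums. Slc4a4 lost its call without DBA 2 (adjusted p = 0.0543 by edgeR), and Aqp4 with types weighted equally (0.23, by limma). The 8 oligodendrocyte markers summed to 98.5 to 145.2 and 76.4 to 142.3 CPM, with 1 called, Mbp (61.5 ± 4.58 against 40.4 ± 8.12 CPM, 0.64). Microglial markers (7 tested) summed to 197.4 to 250.8 and 178.9 to 232.8 CPM, with 1 called toward each class. P2ry12, a purinergic receptor gene, was the member toward excitatory sums (0.37). No member of the vascular (6 tested) and oligodendrocyte precursor (6 tested) lists was called by edgeR, with sums of 8.99 to 55.3 and 9.93 to 50.0 CPM for the first and 11.3 to 16.0 and 12.4 to 26.1 CPM for the second. The part of such RNA in the class differences was not tested.

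Open chromatin was compared in other nuclei, from 4 ATAC libraries summed by class in the same way. Of 269601 peaks tested, 84364 (31.3%) had more counts in excitatory and 79439 (29.5%) in inhibitory sums (edgeR, adjusted p under 0.05). Exc-Tafa1 held 47.2% of excitatory nuclei here against 29.5% in RNA, so the classes were not made up alike. At promoter windows the peaks leaned toward inhibitory sums as a whole. Of 7016 genes with a promoter peak and no RNA call, 90.9% had a peak called toward inhibitory sums, with a median log2 fold change of -0.32, and promoter peaks are read against that median. For 2024 genes called toward excitatory sums in RNA at any fold, the median was -0.25. Of their peaks, 13.1% were called toward excitatory and 69.4% toward inhibitory sums. For 2188 genes called toward inhibitory sums in RNA, the median was -0.37, with 0.594% and 95.7%. For 399 genes at 2-fold or more toward excitatory sums in RNA, the median was 0.11, with 43.1% of peaks called toward excitatory and 22.6% toward inhibitory sums. For 316 genes at 2-fold or more toward inhibitory sums it was -0.64, with 0.316% and 93.7%.

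The transmitter genes had large differences at their promoters. The Slc17a7 window printed above carried 11.3 ± 1.48 CPM in excitatory and 2.10 ± 0.431 CPM in inhibitory sums (SD, n = 4; log2 fold change 2.34 ± 0.10). Its Slc17a6 counterpart carried 4.92 ± 0.328 and 1.12 ± 0.184 CPM (2.04 ± 0.14), and the other annotated start of Slc17a6, at chr7:51621580-51621879, carried 17.5 ± 0.841 and 3.75 ± 0.319 CPM (2.15 ± 0.08). In the opposite direction, Gad1 carried 1.53 ± 0.241 and 16.6 ± 0.56 CPM (-3.51 ± 0.09), Gad2 3.14 ± 0.191 and 24.9 ± 0.587 CPM (-3.06 ± 0.06), and Slc32a1 3.02 ± 0.278 and 37.1 ± 0.749 CPM (-3.69 ± 0.06). In the 86 named genes with a promoter peak, 32 of 34 genes higher in excitatory RNA lay above the median of -0.32, and 29 of 41 genes higher in inhibitory RNA lay at or below it. Large differences in both readouts were also found at Dlx6os1 (-4.01 at its promoter), Sox1ot (-2.83), Six3 (-2.39), Bdnf (2.00) and C1ql3 (1.29). In some genes called in RNA the promoter peak was not called between the classes. Nrxn3, higher in inhibitory RNA, had 2 promoter peaks, of which only that with the most counts was read. It lay inside the gene (chr12:88722701-90334935), at chr12:89811329-89813057, and was at -0.05 (adjusted p = 0.223 by edgeR), above the median of -0.32. Hs3st4, higher in excitatory RNA, had a peak at 0.07 (adjusted p = 0.181 by edgeR). Meis1, with more RNA in excitatory sums, had a peak below the median, at 25.4 ± 2.27 against 42.0 ± 0.992 CPM (-0.80 ± 0.04).

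**Figure D5:**
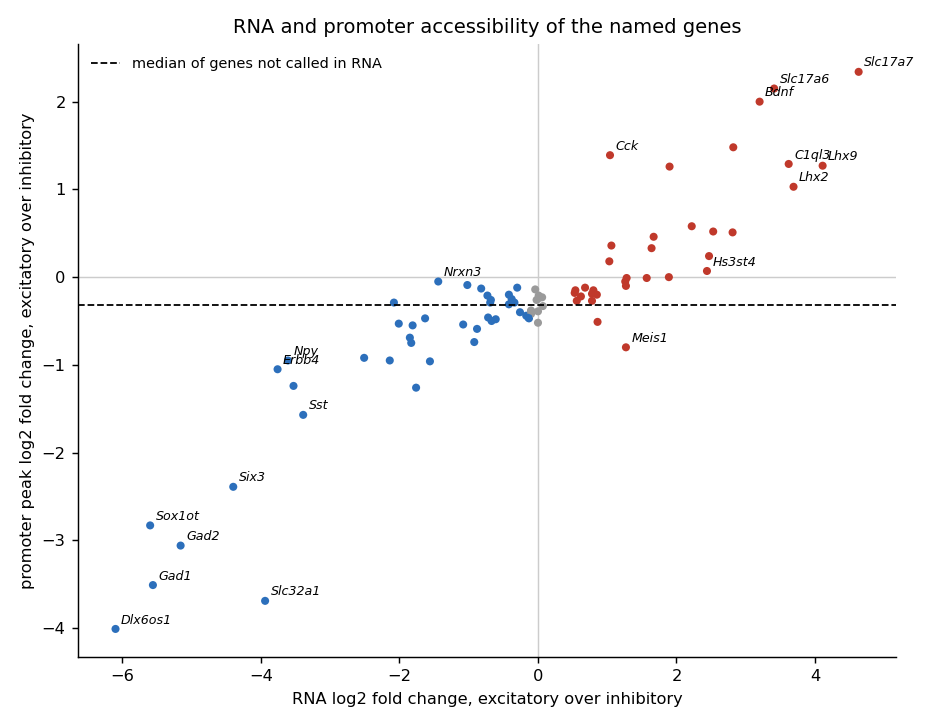
RNA log2 fold change (horizontal) and log2 fold change of the promoter peak with the most counts (vertical), both excitatory over inhibitory, for 86 named genes coloured by their RNA call. The dashed line is the median of genes not called in RNA (-0.32); Gad1, Gad2, Slc32a1 and Dlx6os1 lie at the lower left, Slc17a7, Slc17a6 and Bdnf at the upper right, and Meis1 below the line.

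Promoter motifs were counted over the same windows. The E-box CAGATG, bound by bHLH factors such as those of the NeuroD family, was present in 128 of 546 genes (23.4%) at 2-fold or more toward excitatory sums that matched a window, in 72 of 402 (17.9%) toward inhibitory sums, in 15.1% of 13006 tested genes and in 17.2% of all 32851 windows. TAATTA, a core site of homeodomain factors such as those of the Dlx family, was present in 5.31%, 6.72%, 4.01% and 5.29%, respectively, and TGACGTCA in 1.65%, 2.24%, 3.18% and 1.79%. Windows of the same gene share bases, genes with more starts have more chances to match, and a match is a description of letters only.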

How the data were processed

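Single-nucleus RNA was read with a 3' droplet kit and open chromatin with single-nucleus ATAC in 4 libraries each. The deposited tables hold counts summed per cell type and library, made per the submitters' processing notes with Cell Ranger 6.0.2, Cell Ranger ATAC 2.0.0 and Seurat 4.0.5 on mm10; the roles of these tools, the treatment of doublets and free RNA, and the strand used in counting are not given in the sources used here. Whether the ATAC counts are fragments or cut sites is also not given.

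Columns were summed into 8 class sums. Genes needed 10 counts in each strain and had to pass filterByExpr (minimum count 10). The classes were compared with edgeR 4.0.16 (R 4.3.3; TMM, robust quasi-likelihood test, library as block, Benjamini-Hochberg adjustment), tested on simulated data. The pairing comes from the labels, since both sums of a pair come from 1 library. Alternatives were DESeq2 1.42.0, limma 3.58.1 on log2(CPM + 1) with cell types weighted equally, other scalings and filters, a 1.5-fold threshold, no replicate block, and leaving out libraries or cell types.

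The genes named were the 5 transmitter genes; up to 10 called genes each way with the largest fold change among those whose log2 CPM averaged 5 or more; from each list, the 2 called members each way with the smallest p and the member with the largest p; and 5 genes each way by separation and by share in 1 type. Some members of the lists are counted but not reported by name here. Members and lists were chosen with earlier results of these data known. Genes and windows were matched by symbol. Separate animals were pooled, about 2 per library, so p-values measure how evenly the paired class difference recurs over libraries, not over animals. Of the 24 samples, 16 methylation samples were not analysed here. All value columns used were tied to a library by strain and number, and 0 were left unmapped.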

Additional observations from a re-analysis of the deposited data

Results flagged for a closer look

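In 11 of the 121 named genes, the excitatory to inhibitory log2 ratio of CPM in 1 library stood apart from the other 3 by Dixon's criterion at 95%, which chance meets in about 1 in 20 genes. For Slc17a6 the ratio was 3.97 in DBA 3 and 3.11 to 3.20 in the others. BL6 3 stood apart for Ptprd (2.45 against 2.15 to 2.17), Grin2b (0.38 against 0.27 to 0.29), Kcnc1 (-0.82 against -0.69 to -0.68), Kcnh1 (-0.57 against -0.04 to 0.04) and Car10 (1.93 against 1.48 to 1.49). In DBA 2 this held for Grik5 (0.32 against 0.19 to 0.21) and Grp (3.05 against 2.51 to 2.52), in DBA 3 for Cnih3 (0.59 against 0.80 to 0.83) and P2ry12 (0.23 against 0.35 to 0.37), and in BL6 2 for Slit3 (1.99 against 2.22 to 2.26). All but Kcnh1 had the same direction in all 4 libraries.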

How the results depend on the processing

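Library depth and 4 libraries limit the calls, and 18227 of 34039 genes had enough counts to be tested. Leaving out 1 library gave 5178 to 5944 called genes. A 1.5-fold threshold gave 1408 genes (819 toward excitatory, 589 toward inhibitory sums) and 74991 ATAC peaks (47550 and 27441). No replicate block gave 3396 genes (1915 and 1481), and the block changed no ATAC count by over 1.5 times. Cell types weighted equally gave 4308 genes, 1977 toward excitatory types. Genes toward inhibitory sums numbered 2053 with the DBA libraries alone and 2016 with DESeq2. The separated genes with types of 200 or more nuclei were 185 and 215, and 62 and 87 where log2 CPM averaged at least 5. With types weighted equally, the sign turned for Necab2 (-0.02) and for the median of the GABA-A receptor subunits (-0.08), and without Exc-Tafa1 and Inh-Nxph2 it turned for Pdzrn3 (-0.25). Genes not called in the comparison itself became called with the opposite sign in Bcl11b (-0.18 with types weighted equally, -1.20 without those types) and Ntrk3 (-0.35 without them). Of the named genes' values under the alternatives, 1925 kept their call, 114 lost it, 6 gained it and 7 turned sign, 4 of them with a call lost and 3 with a call gained. With the BL6 libraries alone, adjusted p (edgeR) was 0.0544 for Gad1, 0.0536 for Slc32a1, 0.105 for Erbb4 and 0.143 for Sst, with unchanged direction. The call of Ncs1 was lost without BL6 2 (0.229), BL6 3 (0.113) or DBA 3 (0.0509). Where a call was lost, the cause was not tested.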

Other observations

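The type Neuronal-Aldoa-Cst3, which belonged to neither class, held genes of both transmitters. Over 442 nuclei it carried 99.6 CPM of Slc17a7, 72.1 of Slc17a6, 90.6 of Gad1, 120.0 of Gad2, 70.9 of Slc32a1 and 166.6 of Sst, and 3336.1 to 4842.7 counts per nucleus over the libraries. Its nuclei numbered 217 and 147 in the BL6 libraries and 37 and 41 in the DBA libraries.

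Exc-Strip2 held some genes that were otherwise high in inhibitory types and lacked others. Synpr was at 550.0 CPM in Exc-Strip2 and 1519.0 in Inh-Htr3a, Cnr1 at 186.7 and 648.3, and Erbb4 at 1689.1 and 7925.3. By contrast Gad2 was at 2.54 and 240.8 CPM, Maf at 1.52 and 180.1, Grip1 at 254.7 and 5706.3, and Kcnc2 at 78.6 and 972.3. These genes were picked out after their values were seen. Inh-Lypd6b, the inhibitory type with Slc17a6, also held 7.95 CPM of Lhx2 and 5.75 of Lhx9, against 0.44 to 1.25 CPM of Lhx2 in the other inhibitory types.

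The class difference itself differed between strains in few genes. The interaction of strain and class was called for 30 of 18227 genes by edgeR, with 1161 at an unadjusted p under 0.05, and for none of the named genes.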
